A study of Mus musculus with 15 samples.

Results

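Calcium-binding and cerebellin genes were followed through the neuron types and differentiation stages of the mouse cerebellum and of SHH-driven medulloblastoma. The 9 genes were Calb1, Calb2, Pcp4, Pcp2, Vsnl1, Camk4, Cbln1, Cbln2 and Cbln3, chosen by name from the 27803 genes that the Drop-seq count tables list, and all 9 were in the data. Cbln2 has no row in the tables of the vehicle 2 and vismodegib 2 tumors and was counted as 0 UMIs there. Drop-seq captures single cells with barcoded beads and counts transcript molecules near the 3′ end by unique molecular identifiers (UMIs).

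The samples were 15 C57BL/6 mice in 3 groups of 5. The WT group was normal cerebellum at P7. Both tumor groups were medulloblastomas of M-Smo mice (Math1-Cre:SmoM2/EYFPloxP/loxP), in which Cre under the Math1 (Atoh1) promoter switches on the constitutively active Smo allele SmoM2 together with EYFP in the granule neuron lineage. Tumors were taken at P15, after 3 daily intraperitoneal injections from P12 to P14 of either the SMO inhibitor vismodegib (75 mg/kg in NMP:PEG) or vehicle. Each library came from 1 animal, from a part of its cerebellum or tumor, with littermates of both sexes randomly assigned to the tumor groups. WT cells were captured on another device than tumor cells and without the human embryonic kidney cells spiked into the tumor suspensions, and the WT mice were younger. Genotype, age, device and spike-in therefore cannot be told apart in any comparison of tumor with WT.

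After filtering, 7224 WT, 18293 vehicle and 12429 vismodegib cells were kept of 51841 barcodes in all, with median depths per library between 1082.5 and 2597 UMIs per cell. At most 13 barcodes were shared by any 2 of the 15 libraries. Cells were clustered without the 9 genes and without 29 partner genes. Clusters were named from marker genes along the path of cerebellar granule neuron progenitors (CGNPs), together called CGNP-like. Node A-like cells carry markers of S, G2 and M phase, Node B-like cells those of undifferentiated cells before S phase, Node C-like cells those of early neuronal differentiation and Node D-like cells those of its late stage. The others were named as neurons, glia, microglia and vascular cells. CGNPs are the cells from which SHH medulloblastoma grows. Levels are given in CPM, the summed UMIs of a gene over all UMIs of that class in 1 animal, scaled to 1e6 UMIs, with the mean ± SD taken over animals with at least 10 cells of the class. CPM values of different genes were not compared with each other, since a 3′ count depends on the transcript end.

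The names needed qualification in places. Beside these classes, 1 further WT cluster of late neurons was kept apart from Node D-like cells and is called the set-aside late cluster where it touches a result. Purkinje-like cells (107) carried Car8 at a mean of 6666 CPM, but WT 5 gave only 9 such cells and did not enter their levels. Gabra6, a marker of mature granule neurons, had 0 UMIs in the WT Node D-like cells.

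The proteins fall into 3 kinds. Calb1 (calbindin) and Calb2 (calretinin) are EF-hand calcium buffers, Vsnl1 (visinin-like protein 1) is a calcium sensor that moves to membranes when it binds calcium, Pcp4 (PEP-19) tunes the binding of calcium to calmodulin, and Camk4 is a calcium/calmodulin-dependent kinase of the nucleus that phosphorylates CREB. Pcp2 (L7) is a GoLoco protein acting on G protein alpha subunits and the classic Purkinje cell marker together with Calb1. Cerebellins are secreted hexameric proteins of the C1q family. Cbln1 released by granule neuron axons binds presynaptic neurexins at synapses with Purkinje cells, and Cbln3 is secreted only in complex with Cbln1. Calb2 is known in the cerebellum for mature granule neurons.

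On GRCm38 with the GENCODE M21 annotation, Calb1 lies at chr4:15881264-15908064 on the plus strand. Pcp2, Cbln1 and Calb2 are all on the minus strand of one chromosome, at chr8:3623371-3625545, chr8:87468405-87472609 and chr8:110137502-110168210. Vsnl1 is at chr12:11325242-11436613 and Cbln3 at chr14:55878913-55884392, both on the minus strand. Pcp4 is at chr16:96467606-96525793 on the plus strand. Exons of Pcp4 overlap exons of Igsf5 on the same strand, which leaves the assignment of its reads uncertain to that extent. Exons of Pcp2 overlap Pet100 and those of Camk4 overlap 2310026I22Rik, each on the opposite strand, and Cbln1 overlaps the noncoding Gm2694.

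In the P7 cerebellum the genes divided between Purkinje-like cells and the late end of the granule lineage. Calb1, Pcp2 and Pcp4 were highest in Purkinje-like cells, and Pcp4, Camk4 and Cbln1 were higher in Node D-like than in Node A-like cells. Cbln2 was highest in oligodendrocyte-like cells, and Cbln3 was close to 0 everywhere.

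Calb1 in Purkinje-like cells was 6830, 6400, 6605 and 4826 CPM in WT 1 to WT 4 (6165 ± 910, n = 4). The next class, GABAergic interneuron-like cells, stood at 60.7 ± 18.2 CPM (n = 5), and all lower classes overlapped with their neighbours in the order down to 16.0 CPM in endothelial-like cells. Purkinje-like cells were thus separated from every other class, without overlap, while the classes below them overlapped from neighbour to neighbour. Pcp2 showed the same picture with 7226, 9073, 9780 and 12020 CPM in the 4 animals (9524 ± 1981) and at most 75.3 ± 92.6 CPM in another class. Pcp4 was 21621, 19145, 36670 and 24760 CPM in Purkinje-like cells (25549 ± 7762), again above every value elsewhere, but unlike Calb1 and Pcp2 it also had high levels outside them. In Node D-like cells Pcp4 was 819 ± 324 CPM (n = 5).

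Against Node D-like cells of the same animals, 4 of the 5 genes tested differed in Purkinje-like cells, and 48.2% of all tested genes did. In this and every later comparison, a gene that is low on one side can enter the test through the side where it is high, so that counts of members called are descriptions and are not read as more or less than the share of all genes. Calb1 was 146-fold higher (log2 7.19 ± 0.21 SE, edgeR adjusted p = 1.2e-25), Pcp2 132-fold (7.04 ± 0.21, adjusted p = 1.2e-25) and Pcp4 32.2-fold (5.01 ± 0.17, adjusted p = 7.6e-24). Calb1 and Pcp2 had 27 and 50 UMIs in the Node D-like cells of all 5 WT animals. They entered the test through the Purkinje-like cells, and their folds rest on this low base and are descriptions. Cbln1 was 8.07, 0, 0 and 8.63 CPM in Purkinje-like cells of WT 1 to WT 4 (2, 0, 0 and 1 UMIs) and was called lower (edgeR adjusted p = 1.6e-09). With so few UMIs it entered the test only through the Node D-like cells, and no fold is given. Camk4 did not pass the test (log2 -0.14 ± 0.24, edgeR adjusted p = 0.655). Its Purkinje-like levels were 238, 162, 196 and 121 CPM and its Node D-like levels 222, 302, 215, 203 and 416 CPM, which overlapped, but it was lower in Purkinje-like cells once the set-aside late cluster was counted with Node D-like cells (edgeR adjusted p = 0.00254).

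Against GABAergic interneuron-like cells, which are inhibitory neurons of the same tissue, all 4 genes tested were higher in Purkinje-like cells (25.4% of all genes were), with Calb1 on 5 to 13 and Pcp2 on 2 to 15 UMIs per animal in the interneuron-like cells. Pcp2 was 205-fold, Pcp4 137-fold, Calb1 109-fold and Camk4 4.33-fold higher. The folds of Pcp2 and Calb1 rest on these low counts and are descriptions. Of the 11 partner genes tested, 7 were higher and 2 lower. They included the calcium buffer Pvalb (log2 5.15 ± 0.43, edgeR adjusted p = 1.9e-31) and the kinase subunit Camk2b (3.30 ± 0.33, adjusted p = 7.2e-22). The neurexin Nrxn3 was lower (log2 -0.88, edgeR adjusted p = 1.1e-05). In the comparison with Node D-like cells 6 of 13 partners were higher, among them Pvalb and Hpca (log2 5.86 ± 0.45 and 2.82 ± 0.28, edgeR adjusted p = 1.4e-13 and 6.5e-11), and 2, Camk2d and Ppp3ca, were lower.

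Low counts of the Purkinje genes were found in all WT classes, microglia-like cells included. With each cell thinned to 500 UMIs, 89.5% of Purkinje-like cells had a Calb1 UMI (104 of 107 before thinning, median 3145 UMIs) and 2.24% of microglia-like cells had one (7 of 96, median 1682.5 UMIs). For Pcp4 the thinned shares were 97.9% in Purkinje-like and 27.0% in Node D-like cells, against 7.46% of microglia-like cells. Of the Node A-like cells 4.0% had one. This share was below the microglia-like one and is not read as expression, and the part of free RNA in the Node A-like level was not tested. The ratio of Pcp2 to Calb1 UMIs was 1.42 in Purkinje-like cells and between 0.5 and 1.85 in the other classes. The ratio of Pcp4 to Calb1 UMIs was 3.76 in Purkinje-like cells, 3.11 in interneuron-like and 4.21 in Node A-like cells, but 18.9 in Node D-like cells. It was also above the Purkinje-like ratio in oligodendrocyte-like cells (10 Pcp4 UMIs per Calb1 UMI), vascular fibroblast-like cells (6.33), Node C-like cells (6.04) and endothelial-like cells (6.0), each on 3 to 80 Calb1 UMIs.

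**Figure D1:**
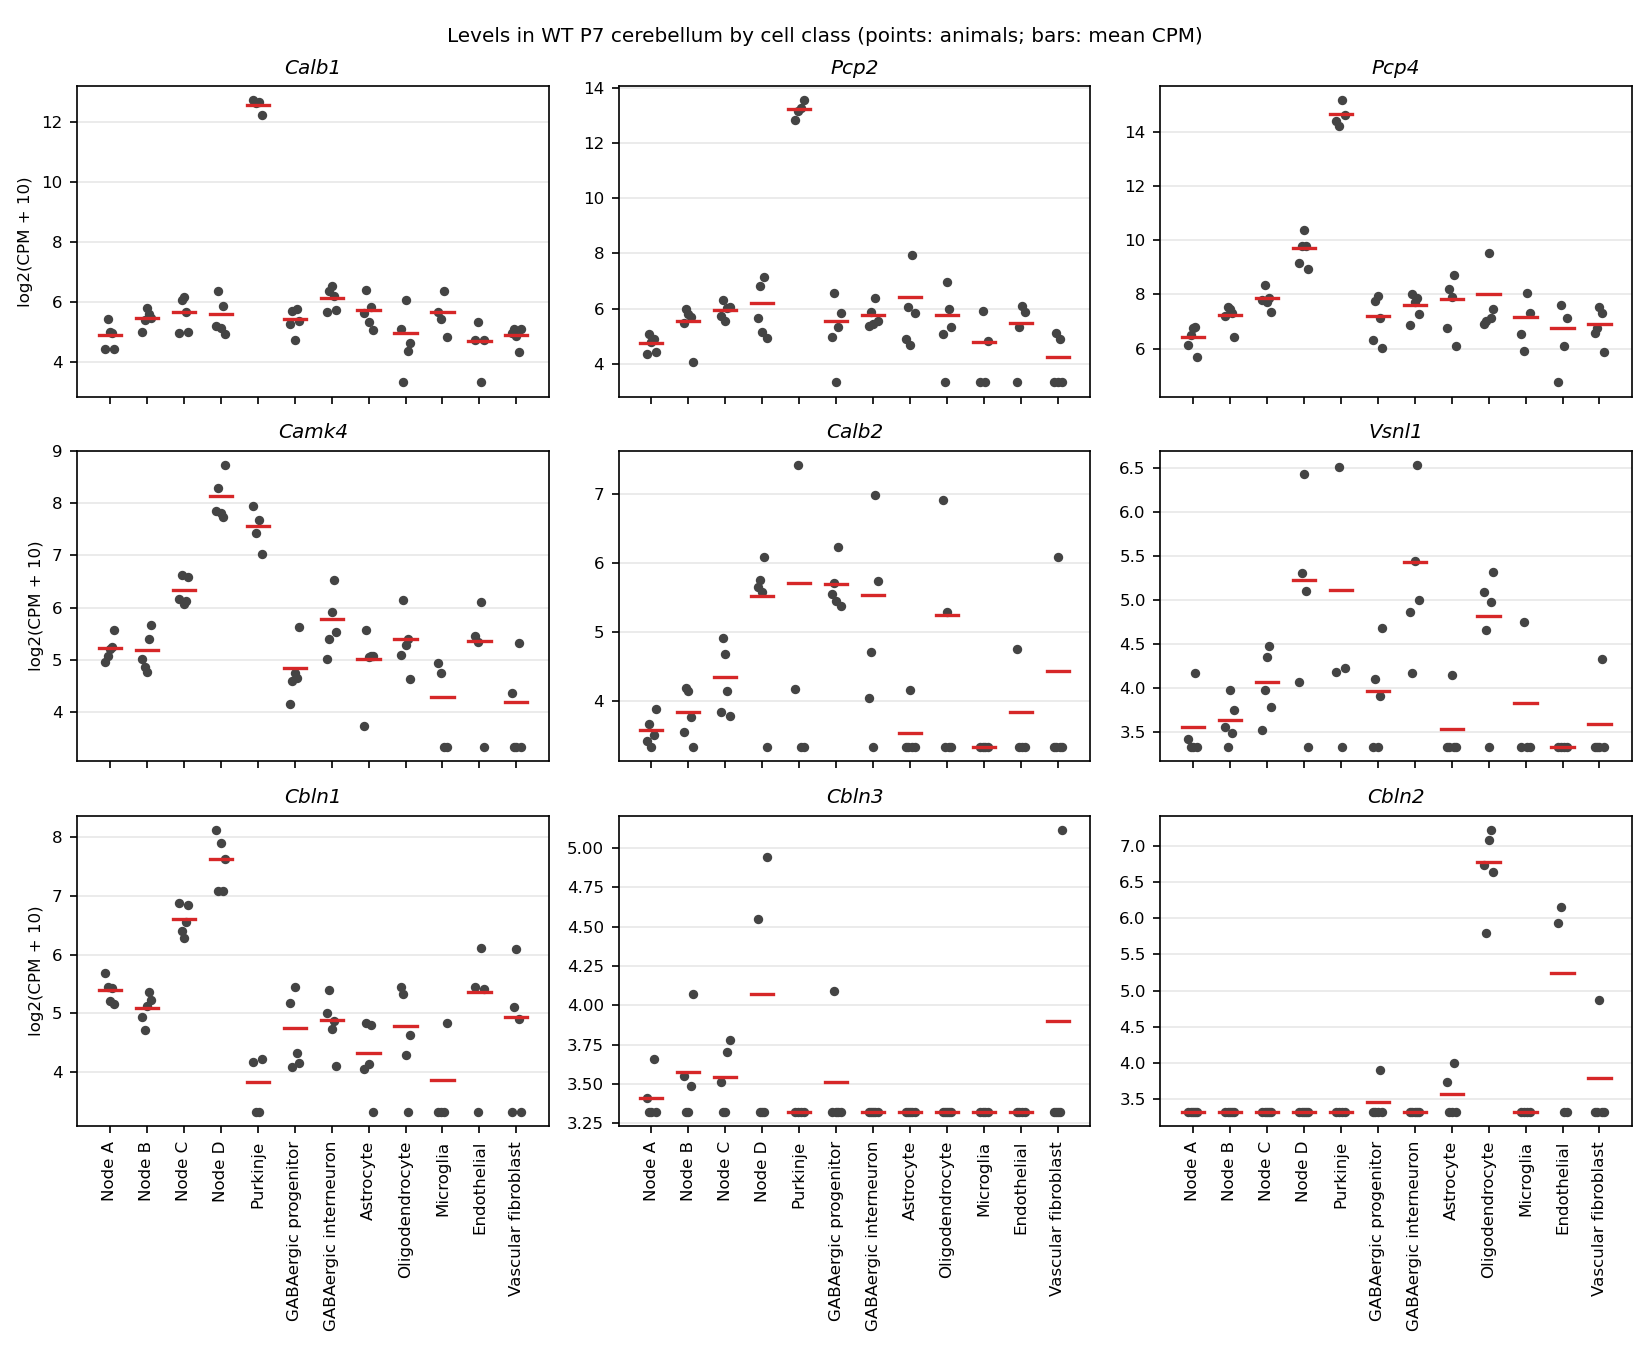
Levels of the 9 genes in WT P7 cerebellum, as log2(CPM + 10) of summed counts (vertical axis, own scale for each gene) in 12 cell classes (horizontal axis); points are animals with at least 10 cells and red bars the mean CPM. Calb1, Pcp2 and Pcp4 peak in Purkinje-like cells, Pcp4, Camk4 and Cbln1 climb from Node A-like and Node B-like to Node D-like cells, and Cbln2 peaks in oligodendrocyte-like cells.

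Along the granule lineage of the WT cerebellum, Pcp4, Camk4 and Cbln1 were higher in Node D-like than in Node A-like cells of the same animals. Pcp4 was 59.4, 80.6, 98.5, 100.3 and 42.1 CPM in Node A-like cells of WT 1 to WT 5 and 564, 877, 1300, 873 and 478 CPM in Node D-like cells. Camk4 was 21.1, 23.4, 26.9, 27.7 and 37.5 CPM in Node A-like cells against 222, 302, 215, 203 and 416 CPM. Cbln1 was 41.5, 33.8, 26.9, 33.0 and 25.7 CPM against 269, 125, 227, 126 and 187 CPM. In all 5 animals and for all 3 genes the Node D-like value was the higher, and the ranges did not overlap. All 3 genes tested were called as higher (25.2% of all genes were), Pcp4 at 9.92-fold (edgeR adjusted p = 7.9e-30), Camk4 at 9.49-fold (1.4e-19) and Cbln1 at 5.33-fold (1.6e-13).

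For Cbln1, the Node D-like level (187 ± 63.0 CPM) and the Node C-like level (87.7 ± 17.8 CPM) did not overlap, while those of Node A-like (32.2 CPM) and Node B-like cells (24.0 CPM) did. The level of Camk4 was 70.7 ± 15.5 CPM in Node C-like cells. Thinned to 500 UMIs per cell, 9.0% of Node D-like and 1.7% of Node A-like cells had a Cbln1 UMI, against 0.23% of microglia-like cells.

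Compared with GABAergic interneuron-like cells, the same 3 genes were also higher in Node D-like cells (3 of 3, where 9.82% of all genes were), Cbln1 by 9.06-fold, Camk4 by 5.75-fold and Pcp4 by 4.26-fold (edgeR adjusted p = 9.3e-10, 3.6e-09 and 1.4e-14). Between interneuron-like and GABAergic progenitor-like cells, Pcp4 was the one gene with enough counts and was 1.45-fold higher in interneuron-like cells (edgeR adjusted p = 0.0455, with 17.8% of all genes higher). That call was lost in 6 of 9 alternatives, namely with DESeq2 (adjusted p = 0.19), with no filter on low counts (0.13), with no replicate block (0.277) and without WT 1, WT 4 or WT 5 (0.109, 0.138 and 0.136). With no filter on low counts, Vsnl1 was called as higher in interneuron-like cells (log2 2.62, edgeR adjusted p = 0.00196). Of the partners, 10 of 13 were higher in Node D-like than in Node A-like cells, among them Camk2d (log2 3.01 ± 0.22) and Nrxn2 (2.06 ± 0.17; edgeR adjusted p = 4.2e-18 and 2e-16), and Hpca was lower (log2 -1.78, adjusted p = 6.5e-10).

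WT Node D-like cells are not all late neurons of the P7 cerebellum, since the set-aside late cluster is not among them. In Node D-like cells Calb2 was 40.3, 44.2, 37.9, 57.9 and 0 CPM in WT 1 to WT 5. Vsnl1 was 6.71, 29.5, 75.8, 24.1 and 0 CPM. These levels rest on 27 UMIs of Calb2 and 16 of Vsnl1 over all 5 animals.

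Calb2 was then compared between late WT cells (Node C-like, Node D-like and the set-aside late cluster) with and without a UMI of Eomes. It was 207, 266, 737, 173 and 521 CPM in the Eomes-positive cells of WT 1 to WT 5 and 24.7, 82.5, 24.3, 41.1 and 22.7 CPM in the Eomes-negative cells. Every animal showed the difference and the ranges did not overlap. Calb2 was 7.62-fold higher with Eomes (log2 2.93 ± 0.27, edgeR adjusted p = 1.3e-15). It was the 1 gene of the 5 tested that passed, where 0.660% of all genes were higher. The other genes gave log2 differences of -0.13 ± 0.14 for Pcp4, -0.06 ± 0.40 for Pcp2, 0.09 ± 0.21 for Camk4 and 0.38 ± 0.21 for Cbln1 (edgeR adjusted p = 0.955, 0.995, 0.994 and 0.776).

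Shares were in the same order. Thinned, 10.03% of Eomes-positive late cells had a Calb2 UMI (30 of 220 before thinning) against 1.5% of Eomes-negative ones (75 of 2254). With 0 of 96, the microglia-like cells allow a share of up to 3.12% by counting error alone, above the Eomes-negative share, and give no contrast with it.

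In tumors, where no cluster like the set-aside one was named, the late cells were Node C-like and Node D-like cells alone. Their split by Eomes gave no common direction. In vehicle tumors 1 to 5, Calb2 was 308.5, 16.0, 0, 44.7 and 123.5 CPM in Eomes-positive late cells and 75.6, 52.7, 62.6, 96.2 and 45.7 CPM in Eomes-negative ones, higher with Eomes in 2 of 5 animals. In vismodegib tumors it was 364, 92.7, 24.0, 155.5 and 283 CPM against 126.5, 141, 185.5, 239 and 331 CPM, higher in 1 of 5. The Eomes-positive values of vehicle tumors rest on 24 to 44 cells each, and the difference between WT and tumors in this respect was not tested.

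**Figure D2:**
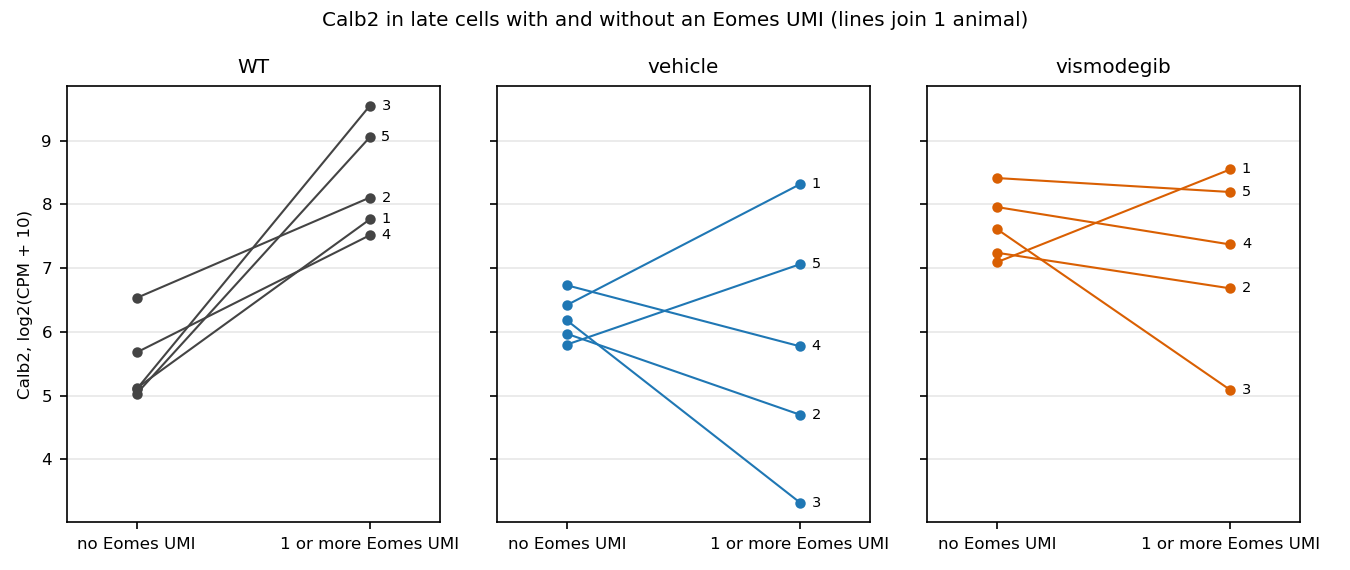
Calb2 level (vertical axis, log2(CPM + 10)) in late cells without and with an Eomes UMI (horizontal axis), for WT, vehicle and vismodegib; each line joins the values of 1 animal, numbered at its right end. All 5 WT lines go up, whereas 2 of 5 vehicle and 1 of 5 vismodegib lines do. The late cells of WT include the set-aside late cluster, and those of tumors have no such cluster.

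Cbln2 and Cbln3 were rare in WT neurons. Cbln2 had 0 UMIs in the Node A-like to Node D-like cells of WT animals and 55 UMIs in oligodendrocyte-like cells, at 96.3, 45.3, 125, 139 and 89.4 CPM in WT 1 to WT 5 (99.1 ± 36.4). Endothelial-like cells were next with 50.9, 61.1, 0 and 0 CPM, overlapping. In tumors Cbln2 was also found in oligodendrocyte-like cells, at 0 to 96.9 CPM in vehicle and 0 to 119 CPM in vismodegib, the 0 in each group being the tumor without a row for it. Cbln3 had at most 4 UMIs in any WT class, so that its order among WT classes could not be read at this depth.

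As a description, the genes with the most similar pattern over the 13 WT classes (Pearson r of class means of log2(CPM + 10), over 8002 genes, classes sharing libraries) were Rgs8 for Calb1 (r = 0.99), Slc17a8 for Pcp2 (0.981) and Vstm2l for Pcp4 (0.983). Cbln1 was most like Eomes (r = 0.956), Vsnl1 most like Rph3a (0.951) and Calb2 most like Fgf5 (0.87). Cbln2 was most like Elovl7 (r = 0.984). The next in order were Htr1b and Strip2 for Calb1, 9630028H03Rik and Ppp1r1b for Pcp2, Cdkl2 and Dos for Pcp4, 5830416P10Rik and Cdh7 for Cbln1, Tenm1 and Dync1i1 for Vsnl1, Grp and Tenm1 for Calb2, and Ddc and Epcam for Cbln2.

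In vehicle-treated tumors, all 6 genes with enough counts were higher in Node D-like than in Node A-like cells, as were 27.4% of all genes. Vsnl1 and Cbln3 entered the test only through the Node D-like cells, in vehicle and in vismodegib alike. In vehicle, Calb2, Pcp4 and Camk4 were also low in Node A-like cells and entered mainly through the Node D-like cells. The same held for Calb2 in vismodegib. Tumor Node A-like shares of cells with a Pcp4 or Camk4 UMI, given below, were near the microglia-like ones. The folds of Calb2, Pcp4 and Camk4 rest on this low base and are descriptions. Calb2 was 57.9-fold higher, Pcp4 46.9-fold, Camk4 31.7-fold and Cbln1 5.73-fold (edgeR adjusted p between 1.5e-38 and 6.5e-22). Node A-like levels of Vsnl1 and Cbln3 were 1.11 and 1.73 CPM in the mean, on few UMIs, and no fold is given for them. In vismodegib-treated tumors 7 of 7 genes were higher (38.0% of all genes were). Calb2 was 38.5-fold, Pcp4 27.6-fold, Camk4 18.5-fold and Cbln1 6.43-fold higher. Cbln3 and Vsnl1 were at 0 to 2.27 and 0 to 4.53 CPM in Node A-like cells there. Pcp2 was 1.66-fold higher (edgeR adjusted p = 0.0175), a call lost with DESeq2 (adjusted p = 0.457), with no replicate block (0.16) and without vismodegib 1 or vismodegib 4 (0.131 and 0.11). Of the partners, 15 of 21 were higher and 3 lower in vehicle, and 16 of 23 were higher and 2 lower in vismodegib. The cerebellin receptor gene Nrxn3 was the first by p among those higher in both (log2 5.78 ± 0.20 and 5.18 ± 0.14), and Cbln4 and Pvalb were lower in both (log2 -3.17 and -3.33 in vehicle, -4.14 and -2.96 in vismodegib).

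**Figure D3:**
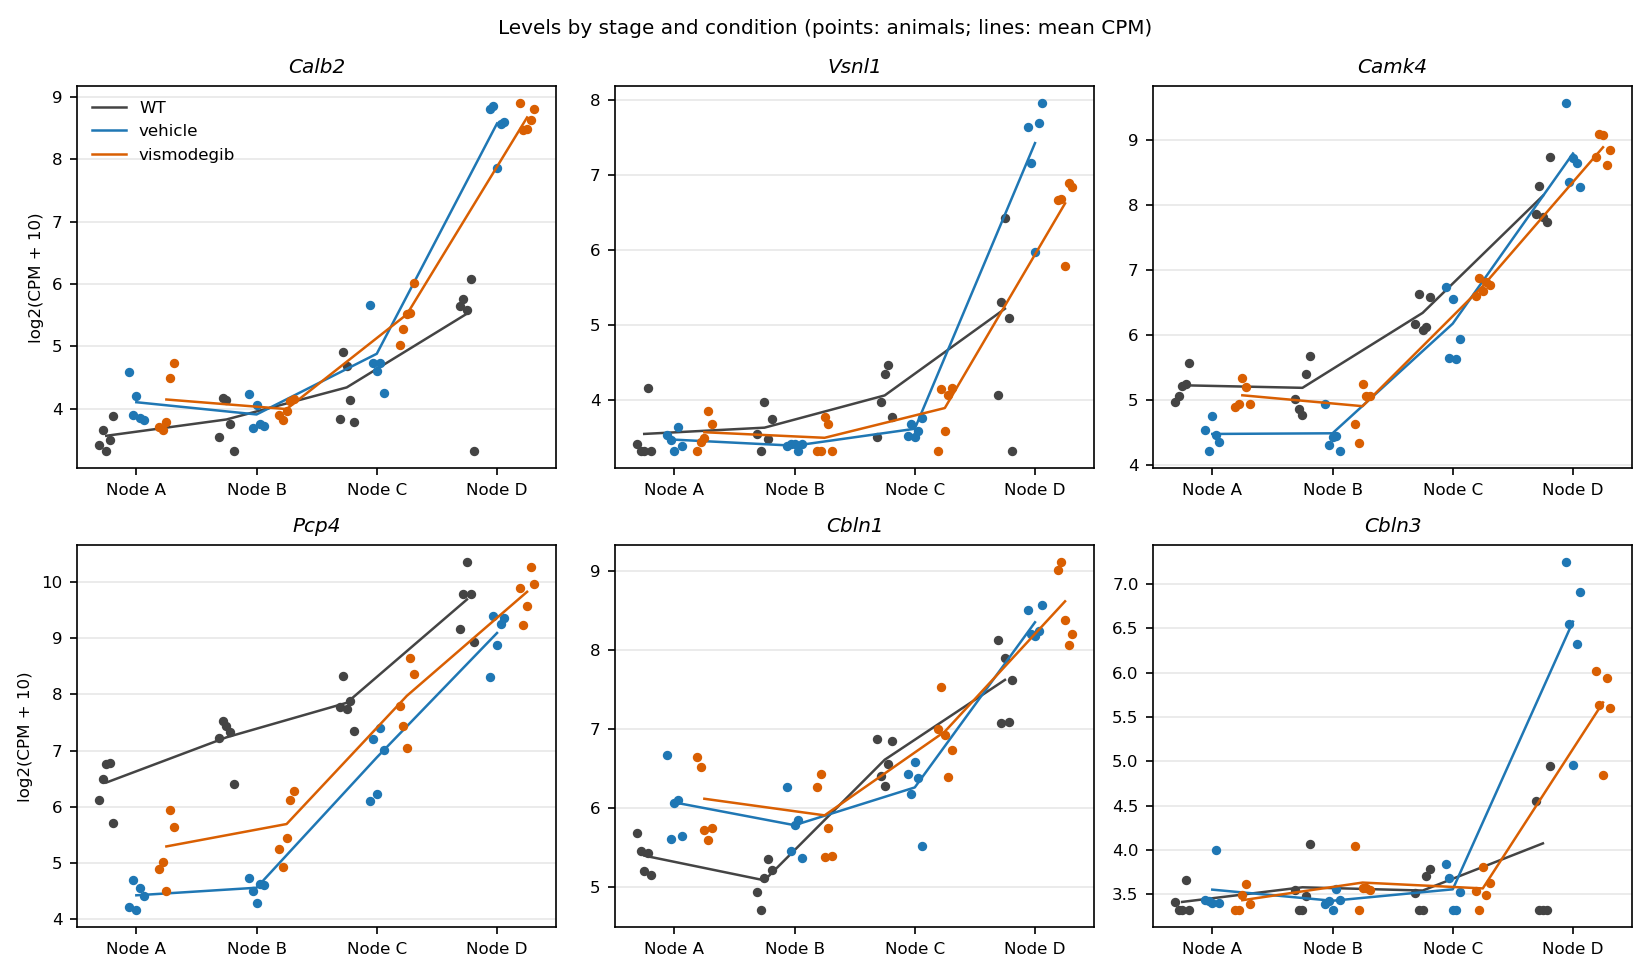
Levels (vertical axis, log2(CPM + 10), own scale for each gene) of 6 genes along Node A-like to Node D-like cells (horizontal axis) in WT (grey), vehicle (blue) and vismodegib (orange); points are animals and lines join mean CPM. Calb2, Vsnl1 and Cbln3 stay low until Node C-like cells. Their means are higher in Node D-like cells of tumors than in those of WT (the WT set-aside late cluster is not drawn). The Vsnl1 values overlap there, and neither Cbln3 against WT nor vismodegib against WT was tested. The mean of Pcp4 is lower in vehicle than in WT at each stage.

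Vehicle tumors were compared with WT cerebellum at the late stage and over the whole lineage. Among Node D-like cells 4 of the 5 genes tested were higher and 1 lower in vehicle (16.2% of all genes were higher and 13.8% lower). Calb2, with 27 UMIs in WT Node D-like cells, entered the test only through the vehicle tumors, and Vsnl1, with 16, mainly through them. The folds of both genes rest on this low base and are descriptions. Calb2 was 436, 451, 222, 370 and 378 CPM in vehicle 1 to 5 against 0 to 57.9 CPM in WT, an 8.08-fold difference (log2 3.02 ± 0.31, edgeR adjusted p = 2e-08). Vsnl1 was 189, 134, 52.8, 196 and 238 CPM against 0 to 75.8 CPM, 5.81-fold (log2 2.54 ± 0.46, edgeR adjusted p = 8.9e-05), with vehicle 3 below WT 3. Calb2 in vehicle thus lay above the Node D-like cells of every WT animal, and Vsnl1 did in 4 of 5 tumors, with the set-aside late cluster left out of WT. At a clustering resolution of 1.2 the mean of Calb2 in vehicle was 197 CPM. Cbln1 was 1.65-fold and Camk4 1.56-fold higher (edgeR adjusted p = 0.0183 and 0.0475), and Pcp4 was 1.59-fold lower (adjusted p = 0.0272).

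These differences turned on which cells stood for the late stage. With the set-aside late cluster counted as Node D-like, Calb2 was still higher in vehicle but by log2 1.02 (edgeR adjusted p = 0.00063). Vsnl1 (0.80, adjusted p = 0.055), Camk4 (0.07, 0.836) and Cbln1 (0.07, 0.809) were no longer called, and Pcp4 was lower by log2 -1.24. A gate on markers instead of clusters took CGNP-like cells with a UMI of Rbfox3 or Grin2b and without one of Mki67 or Top2a. By this gate Calb2 was no longer called (log2 1.09, edgeR adjusted p = 0.0651). Camk4 was lower in vehicle (log2 -0.80, edgeR adjusted p = 0.0426) and Cbln1 too, short of the threshold (-0.61, adjusted p = 0.0931). With the set-aside late cluster in the gate, Camk4, Cbln1 and Vsnl1 were all lower in vehicle (log2 -1.74, -1.29 and -1.62, edgeR adjusted p = 3e-05, 0.00035 and 0.00138), and Calb2 gave log2 -0.82 (adjusted p = 0.0629). The call of Cbln1 was also lost at a clustering resolution of 1.2 (adjusted p = 0.611) and without WT 2 or WT 4 (0.0931 and 0.0884). That of Pcp4 was lost without vehicle 1, vehicle 3, WT 3 or WT 4 (0.0594, 0.0504, 0.116 and 0.0628), and that of Camk4 without vehicle 1, 3 or 4 or WT 1, 2, 3 or 4 (0.0547 to 0.219), at resolution 1.2 (0.989), with a replicate block (0.0809), with DESeq2 (0.0667) and with no filter on low counts (0.0503).

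Markers of another cell type were also present in these cells. The Node D-like tumor cluster that held 47.1% of the vehicle Node D-like cells carried Gad1, which makes GABA, at 86.7 ± 41.2 CPM (24 UMIs), whereas the other 2 Node D-like clusters of vehicle tumors had 0 Gad1 UMIs and WT Node D-like cells 5.58 ± 7.65 CPM. The 5 interneuron markers Pax2, Gad1, Gad2, Slc32a1 and Tfap2b all had UMIs in Node D-like cells of both groups. Their summed level was 50.5 to 125 CPM in WT and 37.0 to 225 CPM in vehicle, which overlapped, against 1770 to 2396 CPM in WT interneuron-like cells. In the vehicle cluster led by Syt4, Meg3 and Gabra6, which had 0 Gad1 UMIs, Calb2 was 340 to 864 CPM and Vsnl1 170 to 654 CPM. The part of the other cells in the differences of Camk4, Cbln1 and Pcp4 was not tested.

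Over all CGNP-like cells 5 of 7 genes differed between vehicle and WT (43.3% of all genes did). Node D-like cells were 12.7 ± 3.22% of CGNP-like cells in WT and 4.44 ± 2.68% in vehicle, and in a sum over CGNP-like cells fewer late cells and less RNA of a gene per cell cannot be told apart. Calb1 was 0.745 to 2.43 CPM in the vehicle tumors and was called lower there (edgeR adjusted p = 7.7e-07). It entered the test only through WT, and no fold is given. Pcp2 was 5.26-fold lower in vehicle (log2 -2.40 ± 0.36, edgeR adjusted p = 8.7e-05) and Pcp4 4.54-fold lower (-2.18 ± 0.30, 4.2e-05). The tumors had no Purkinje-like cluster. Calb1 in WT CGNP-like cells was 16.7, 44.4, 42.2, 34.6 and 21.2 CPM, beside 41.4, 33.7, 72.1 and 18.6 CPM in WT microglia-like cells of WT 1 to WT 4, and WT barcodes under 500 UMIs held Calb1 at 256 CPM in the mean. The part of free Purkinje transcripts in these differences was not tested. Camk4 was 1.77-fold lower in vehicle (edgeR adjusted p = 0.0187, 0.0549 without WT 2). Calb2 was 2.3-fold higher (adjusted p = 0.0205), a call lost without WT 1 (0.0597) or without the clusters rich in hemoglobin transcripts (0.0504) and turned to log2 -0.69 when the set-aside late cluster was counted in. Vsnl1 and Cbln1 gave log2 -0.01 ± 0.56 and 0.06 ± 0.19 (edgeR adjusted p = 0.99 and 0.825), but with the set-aside late cluster counted in Vsnl1 was lower in vehicle (log2 -1.58, edgeR adjusted p = 0.00825). Among the 24 partners 6 were higher, led by Cbln4 (log2 4.15 ± 0.42, edgeR adjusted p = 3e-06), Pvalb (2.79) and Creb1 (0.91), and 6 were lower, led by Nrxn2 (-1.31), Nrxn3 (-0.95) and Calm2 (-0.79). Of the 12 partners tested in Node D-like cells, 6 were higher in vehicle, among them Nrxn3 and Camk2b (log2 1.22 and 1.10), and Calm3 was lower.

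Vismodegib blocks SMO and thereby the SHH signal that keeps CGNPs dividing. The vehicle tumors compared with WT above are also the controls here. Over all CGNP-like cells, 6 of the 8 genes tested were higher in vismodegib-treated than in vehicle-treated tumors, where 8.54% of all tested genes were higher and 4.67% lower. The 6 were the calcium genes of the late stage and both cerebellins with enough counts. Calb1 and Pcp2 did not pass.

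Pcp4 was 27.0, 49.2, 39.7, 74.4 and 35.9 CPM in vehicle 1 to 5 and 174, 136, 168, 522 and 482 CPM in vismodegib 1 to 5. Every vismodegib tumor was above every vehicle tumor, by 6.61-fold in the fit (log2 2.73 ± 0.43, edgeR adjusted p = 0.00109). Calb2 was 24.6, 13.9, 18.9, 26.4 and 10.1 CPM in vehicle and 57.0, 56.8, 70.4, 140 and 195 CPM in vismodegib. It again showed no overlap (5.73-fold, log2 2.52 ± 0.39, edgeR adjusted p = 0.00102). Camk4 was 45.7, 20.3, 44.9, 37.7 and 19.3 CPM against 78.6, 110, 128.5, 162 and 209 CPM, with no overlap either (4.21-fold, log2 2.07 ± 0.31, edgeR adjusted p = 0.00076). Cbln1 was 82.2, 45.6, 68.0, 70.6 and 41.1 CPM against 134, 167, 103.5, 119 and 149 CPM (2.21-fold, log2 1.14 ± 0.20, edgeR adjusted p = 0.00184), the smallest of the 6 changes and also without overlap. The share of all genes without overlap was not counted in this or any other comparison, and lack of overlap is a description throughout.

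Vsnl1 and Cbln3 were higher with overlapping ranges. Vsnl1 was 4.86, 3.52, 2.98, 12.1 and 4.54 CPM in vehicle against 9.42, 14.9, 9.54, 38.8 and 44.7 CPM (4.39-fold, edgeR adjusted p = 0.0136). Cbln3 was 4.13, 2.53, 1.24, 6.85 and 2.46 CPM against 8.004, 5.45, 4.99, 18.0 and 16.5 CPM (3.26-fold, edgeR adjusted p = 0.0295). The call of Cbln3 was lost without vehicle 2, 3 or 5 or vismodegib 4 or 5 (adjusted p between 0.0529 and 0.0983). In both genes the vehicle 4 tumor overlapped with the lower vismodegib tumors. Pcp2 (log2 1.11 ± 0.37, edgeR adjusted p = 0.066) passed without vehicle 5 or vismodegib 2 (adjusted p = 0.0482 and 0.0458), with DESeq2 (0.0303), with the division of the tumors as a term (0.00477) and with a replicate block (0.0275). Calb1 was at or under 4.64 CPM in every tumor (log2 0.56 ± 0.49, adjusted p = 0.524).

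The tumors had been divided in earlier work on these data, with no label naming a batch, into the first set (vehicle 1 and 3, vismodegib 1, 2 and 3) and the second set (vehicle 2, 4 and 5, vismodegib 4 and 5). Within each set Vsnl1 and Cbln3 were higher in every vismodegib tumor than in every vehicle tumor. For Pcp4, Calb2, Camk4 and Cbln1 this already follows from the lack of overlap over all tumors. The share of all genes separated in this way was not counted. The ratio of mean levels was larger in the second set for each of the 6 genes. It was 4.77 and 9.44 for Pcp4, 2.83 and 9.94 for Calb2, 2.33 and 7.2 for Camk4, 1.8 and 2.56 for Cbln1, 2.88 and 6.22 for Vsnl1, and 2.29 and 4.36 for Cbln3. Whether the sets differ in the change was not tested. Since the sets come from these same data, orders within sets and fits with the division as a term are descriptions only.

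Node D-like cells made up 27.8 ± 15.4% of CGNP-like cells in vismodegib tumors, and the stages were therefore also compared one by one. In Node D-like cells 0 of 6 genes and 0 of 5283 genes in all (0%) passed at adjusted p under 0.05, with 250 genes at unadjusted p under 0.05 and 2 called by DESeq2. Calb2 was 436, 451, 222, 370 and 378 CPM in vehicle and 467, 346, 350, 387 and 439 CPM in vismodegib (log2 0.12 ± 0.18). Camk4 gave 0.14 ± 0.21 and Cbln1 0.25 ± 0.21. These genes thus had overlapping levels in Node D-like cells and separate ones in the sum.

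Pcp4, Vsnl1 and Cbln3 had larger differences in Node D-like cells that did not survive the correction. Pcp4 was 307, 668, 465, 602 and 646 CPM in vehicle and 943, 591, 750, 1222 and 998 CPM in vismodegib (log2 0.74 ± 0.22, edgeR adjusted p = 1). Within the first set all vismodegib tumors were above all vehicle tumors (ratio 1.97), and likewise in the second (1.74). With the division of the tumors as a term Pcp4 was called (log2 0.87, edgeR adjusted p = 0.0157), as it was with no filter on low counts (log2 0.87, adjusted p = 0.0113). The division is not in the labels and comes from earlier work on these data, so that neither it nor the order within sets is independent support. Vsnl1 was 189, 134, 52.8, 196 and 238 CPM in vehicle and 91.5, 92.2, 45.4, 109 and 104 CPM in vismodegib (log2 -0.82 ± 0.29, edgeR adjusted p = 1). Cbln3 was 142, 83.5, 21.1, 70.2 and 111 CPM and 54.9, 39.8, 18.7, 51.6 and 38.4 CPM (log2 -0.95 ± 0.35, edgeR adjusted p = 1). Both were lower in the mean with vismodegib here, against their direction in the sum, and both overlapped. By the marker gate in place of the cluster, all 6 genes were higher in vismodegib, Calb2 and Pcp4 by log2 2.25 each, Camk4 by 1.94, Vsnl1 by 1.72, Cbln3 by 1.55 and Cbln1 by 1.44 (edgeR adjusted p = 0.00017, 0.00032, 0.00015, 0.00546, 0.00974 and 0.00033). The gate, planned as an alternative, held 4343 vehicle and 4631 vismodegib cells, against 580 and 3595 in the Node D-like clusters.

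**Figure D4:**
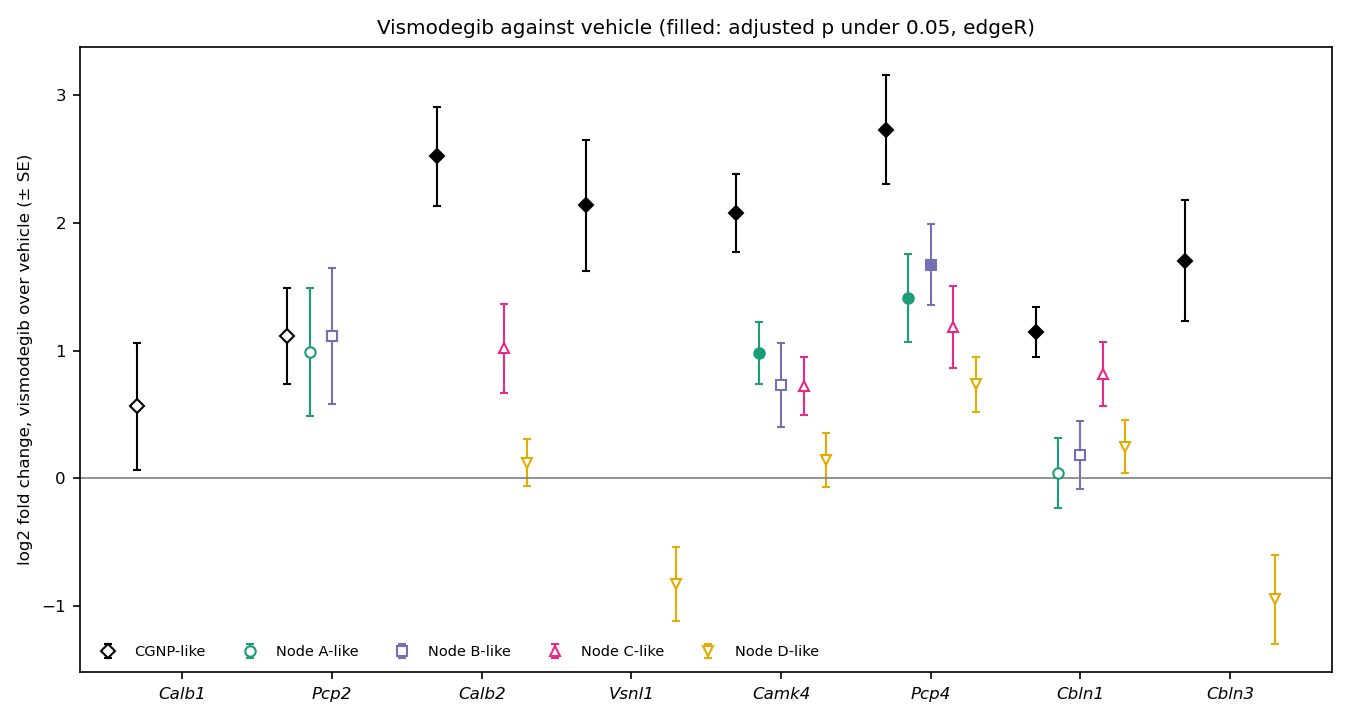
Log2 fold change of vismodegib over vehicle with its SE (vertical axis) for 8 genes (horizontal axis) in all CGNP-like cells and in each stage; filled symbols passed at adjusted p under 0.05 (edgeR), and only tested genes are drawn. The changes are larger in the sum over CGNP-like cells (up to 2.73 for Pcp4) than within Node D-like cells, where Vsnl1 and Cbln3 lie under 0.

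The Node D-like tumor cells fell into 3 clusters, and most Vsnl1 and Cbln3 UMIs were in 1 of them. That cluster, the largest over both groups together but not in vehicle tumors alone, led by Syt4, Meg3 and Gabra6, held 29.3% of the Node D-like cells of vehicle tumors and 52.4% of those of vismodegib tumors. Within it, Vsnl1 was 550, 375, 170, 461 and 654 CPM in vehicle 1 to 5 and 181, 199, 77.03, 154 and 136 CPM in vismodegib 1 to 5. Cbln3 was 393, 241, 75.6, 199 and 327 CPM in vehicle and 181, 105, 31.7, 85.0 and 54.6 CPM in vismodegib. For both genes the vehicle 3 tumor alone lay within the vismodegib range. Calb2 was 864, 724, 340, 797 and 627 CPM against 626, 465, 480, 474 and 504 CPM, again with vehicle 3 below. Pcp4 went the other way, with 471, 616, 586, 566 and 477 CPM in vehicle and 988, 653, 902, 1306 and 1084 CPM in vismodegib, with no overlap. Gabra6 stood at 452 ± 261 CPM in vehicle and 153 ± 62.7 CPM in vismodegib in this cluster. These values rest on 22 to 51 cells per vehicle tumor and were not tested. In the other 2 clusters Cbln3 was 0 to 41.3 CPM in every tumor.

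**Figure D5:**
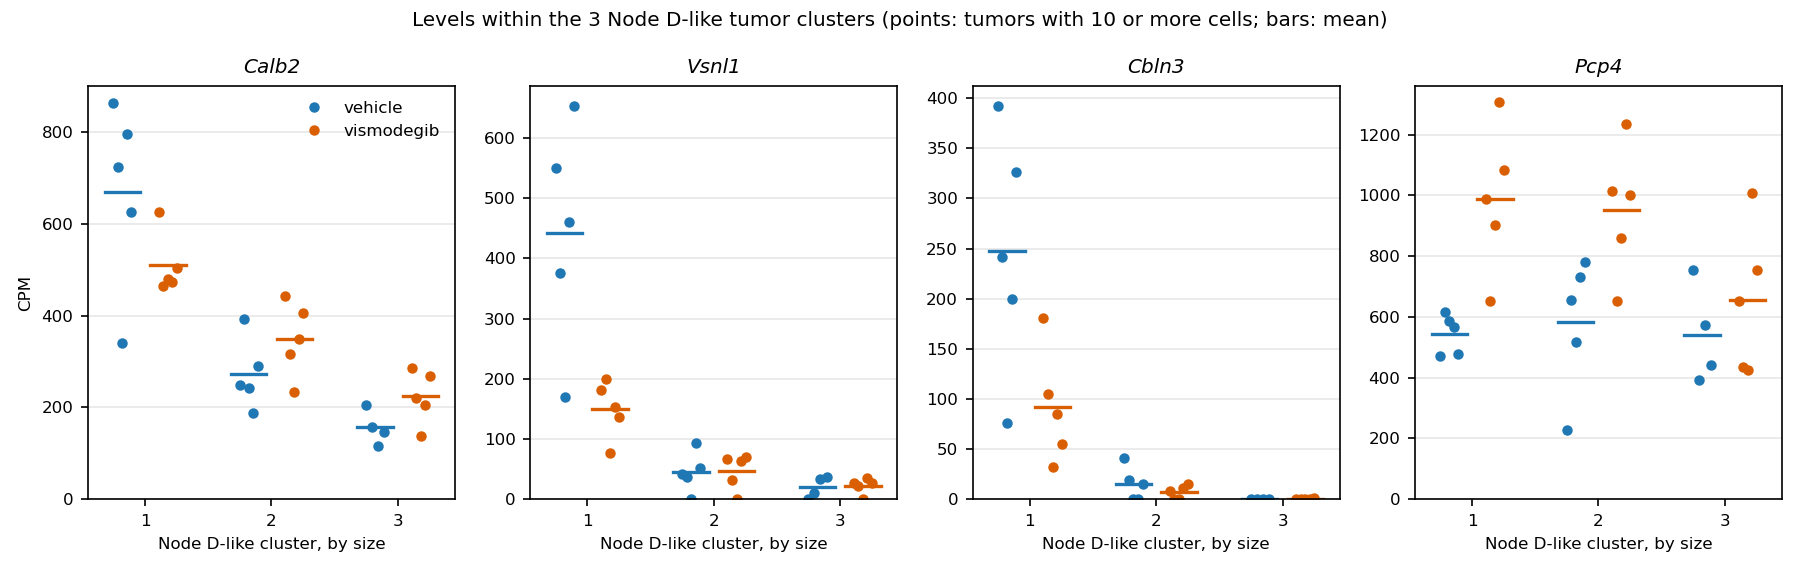
Levels of Calb2, Vsnl1, Cbln3 and Pcp4 (vertical axes, CPM from 0) in the 3 Node D-like tumor clusters ordered by size over both groups (horizontal axis); points are vehicle (blue) and vismodegib (orange) tumors with at least 10 cells and bars their means. In the first cluster 4 of 5 vehicle tumors lie above every vismodegib tumor for Cbln3 and, with 375 to 654 CPM, for Vsnl1, while for Pcp4 all 5 vismodegib tumors lie above vehicle.

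At the earlier stages Pcp4 was the gene that moved most. In Node B-like cells it was 16.5, 12.6, 9.44, 14.6 and 14.3 CPM in vehicle and 27.8, 20.3, 33.5, 59.3 and 67.2 CPM in vismodegib, without overlap (3.19-fold, log2 1.67 ± 0.32, edgeR adjusted p = 0.00712). It was the 1 of 4 genes called, where 1.35% of all genes were higher. In Node A-like cells Pcp4 was 8.55, 15.9, 7.83, 13.5 and 11.2 CPM against 19.5, 22.3, 12.7, 51.7 and 39.5 CPM (2.66-fold, edgeR adjusted p = 0.0418). Camk4 was 13.2, 8.50, 16.9, 11.97 and 10.4 CPM against 19.5, 20.5, 30.4, 26.8 and 20.5 CPM, without overlap (1.97-fold, edgeR adjusted p = 0.0474). These were 2 of 4 genes in Node A-like cells, where 0.773% of all genes were higher. The call of Pcp4 there was lost without vismodegib 4 or 5 or any 1 of the 5 vehicle tumors (adjusted p between 0.0502 and 0.163), and that of Camk4 without any 1 of 9 tumors, all but vehicle 3 (0.0554 to 0.145), without the clusters rich in hemoglobin transcripts (0.151) and with no filter on low counts (0.0652). Cbln1 did not pass in either stage (log2 0.04 ± 0.27 and 0.18 ± 0.27, edgeR adjusted p = 0.98 and 0.799). Neither did Pcp2 (log2 0.99 ± 0.50 in Node A-like and 1.11 ± 0.53 in Node B-like cells, edgeR adjusted p = 0.472 and 0.312), nor Camk4 in Node B-like cells (0.73 ± 0.33, adjusted p = 0.279).

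In microglia-like cells, which were not tested, Pcp4 was 20.6, 0, 0 and 7.10 CPM in vehicle 1, 2, 4 and 5 (vehicle 3 had under 10 such cells) and 10.7, 40.7, 29.4, 56.4 and 42.5 CPM in vismodegib, which overlapped. Thinned to 500 UMIs, 0.24% of vehicle and 2.19% of vismodegib microglia-like cells had a Pcp4 UMI (2 of 198 and 35 of 329, median depths 2110.5 and 2250 UMIs), against 0.61% and 1.57% of Node A-like cells. The shares of Node A-like cells are thus near those of cells that should lack the gene. Camk4 shares were 0.563% and 1.126% in Node A-like and 0.10% and 1.84% in microglia-like cells. The part of free RNA in the Node A-like and Node B-like differences was not tested. In Node D-like cells, 21.6% and 32.6% had a Pcp4 UMI and 18.8% and 19.5% a Camk4 UMI, well above these values.

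In Node C-like cells 0 of 4 genes passed (0.662% of all genes did), with log2 differences of 1.18 ± 0.32 for Pcp4, 1.02 ± 0.35 for Calb2, 0.82 ± 0.25 for Cbln1 and 0.73 ± 0.23 for Camk4 (edgeR adjusted p between 0.143 and 0.273). Pcp4 there was 58.4, 137, 64.6, 159 and 119 CPM in vehicle and 212, 163, 122, 391 and 321 CPM in vismodegib. It passed with the division of the tumors as a term (log2 1.42, edgeR adjusted p = 6.1e-05), with DESeq2 (0.0453) and with a replicate block (edgeR, 0.0121). With no filter on low counts all 4 genes passed, Pcp4 at an edgeR adjusted p of 7.9e-07, Cbln1 at 0.0114, Calb2 at 0.0354 and Camk4 at 0.0443.

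Whether the change with vismodegib depended on stage was tested on the difference between late (Node C-like and Node D-like) and early (Node A-like and Node B-like) cells within each tumor, on the log2 CPM scale. Of 7 genes, Calb2 and Cbln1 had a larger late minus early difference in vismodegib (as had 5.67% of all genes). For Calb2 this difference was 2.88, 3.47, 2.80, 4.29 and 3.45 in vehicle 1 to 5 and 4.89, 5.11, 4.99, 4.32 and 4.54 in vismodegib 1 to 5 (change 1.39 ± 0.25, limma adjusted p = 0.00083). For Cbln1 it was 0.461, 1.09, 1.27, 1.12 and 0.936 in vehicle and 1.43, 1.91, 2.32, 2.11 and 2.52 in vismodegib (1.08 ± 0.17, limma adjusted p = 0.00021). All 5 vismodegib tumors were above all vehicle tumors in both genes, a separation whose share over all genes was not counted. Pcp4, Camk4, Vsnl1, Cbln3 and Pcp2 gave 0.40 ± 0.20, 0.48 ± 0.18, 0.41 ± 0.45, 0.43 ± 0.52 and -0.06 ± 0.45 (limma adjusted p = 0.197, 0.0913, 0.633, 0.662 and 0.961), and Camk4 passed without vismodegib 3 (0.0434), without the clusters rich in hemoglobin transcripts (0.0372) and at a clustering resolution of 1.2 (0.0471). Node D-like cells were 15.3% of the late cells in vehicle and 44.3% in vismodegib, and the late side is a sum over both classes.

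Of 24 partner genes, 10 were higher and 2 lower with vismodegib in CGNP-like cells. The presynaptic cerebellin receptors Nrxn3 (log2 2.03 ± 0.25) and Nrxn2 (1.58 ± 0.28) and the kinase subunit Camk2d (1.72 ± 0.26) led those that were higher (edgeR adjusted p = 0.00025, 0.00217 and 0.00086). The cerebellin relative Cbln4 (log2 -1.55 ± 0.27, edgeR adjusted p = 0.00198) and the calcium sensor gene Hpca (-1.45 ± 0.29, adjusted p = 0.00462) were lower. Stage by stage, 1 of 23 partners was higher (Pvalb) and 1 lower (Hpca) in Node A-like cells. In Node B-like cells 1 of 21 was higher (Pvalb, log2 1.74 ± 0.23) and 3 were lower (Hpcal1, Camk1 and Hpca). In Node C-like and Node D-like cells 0 of 21 and 0 of 17 partners passed. Cbln1 and Cbln3 thus stood on the other side from Cbln4 in the sum over CGNP-like cells. For the late minus early difference, 9 of 24 partners were higher, led by Hpcal1, Hpca and Nrxn2, and 2, Pvalb and Cbln4, were lower.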

How the data were processed

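Per the labels and the methods of the study, the deposited files are UMI counts per gene and cell barcode, 1 table per mouse, made by the authors with Drop-seq Tools 1.13 and STAR on mm10 extended by Cre and SmoM2/EYFP sequences (STAR 2.5.4a in the methods; the submitters' processing notes name STAR 5.4b, Seurat 2.3.0 and bcl2fastq 2.18). Barcodes of tumor libraries were kept by the authors where over 90% of reads on a mixed reference were mouse, and the sources used here name no annotation version. The counts are raw, before a filter on cells.

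Cells with at least 500 UMIs and 500 genes were kept if not over 5 SD above the median in UMIs, genes or mitochondrial share. These were 48.2% of WT, 85.0% of vehicle and 81.2% of vismodegib barcodes. Total UMIs per table were 2310474 to 17708677. PCA on 1436 (WT, 11 components) and 959 (tumor, 7 components) variable genes and Louvain clustering at resolution 0.8 (igraph, scikit-learn) gave 15 and 17 clusters, with 38 genes (9 members, 29 partners) held out. Clusters were named by markers; no doublet caller was run. Settled after clusters were seen were that hemoglobin genes do not count as leading genes and that leading genes do not separate Node D-like from generic neuron names. Replicate numbers did not pair animals. Counts were summed per animal and class (at least 10 cells) and tested with edgeR 4.0.16 (quasi-likelihood, TMM, filterByExpr, Benjamini-Hochberg over all tested genes), with the animal as a block within animals. The late minus early difference was tested with limma 3.58.1 (log2 CPM, prior count 2). Calls were made at adjusted p under 0.05, in R 4.3.3. On simulated data edgeR recovered 91% of 2-fold changes in well-counted genes for vismodegib against vehicle Node D-like cells. Vsnl1 and Cbln3 lay under the count limit for these genes. The simulation also held 100 genes changed 2-fold and 100 changed 4-fold, whereas 0 of 5283 genes were called in the data. Uncalled differences of members in Node D-like cells are therefore not read as no change. For the late minus early difference limma recovered 40% of 200 shifted genes, so that an uncalled difference there is not read as no change. DESeq2 1.42.0 served as an alternative. Shares of cells were computed with each cell thinned to 500 UMIs, with floors of 3 counts and counting error only. The rule for named genes took all 9 members in each comparison, of the partners up to 3 with the smallest adjusted p per direction, and the 3 genes most alike for members over 50 CPM. Members that the text does not name in a comparison had too few counts and were not tested there, and partners are named for part of the comparisons. Some genes that this rule names, and 1 WT cluster on its own, are not reported here. The members, partners and markers were chosen with earlier results of these data known.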

Additional observations from a re-analysis of the deposited data

Results flagged for a closer look

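Among 70 groups of 4 or 5 animals with a mean level of at least 20 CPM, 4 held an animal far from the others by Dixon's criterion, where chance gives about 1 in 20. Camk4 in Node D-like cells of vehicle 1 was 743 CPM (63 UMIs) and 297 to 412 CPM in the other vehicle tumors. Vsnl1 in Node D-like cells of vismodegib 3 was 45.4 CPM (17 UMIs), against 91.5 to 109 CPM in the others. In Purkinje-like cells of WT 2, Calb2 was 162 CPM (6 UMIs, others 0 to 8.07 CPM) and Vsnl1 81.0 CPM (3 UMIs, others 0 to 8.63 CPM).

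The late minus early difference changed with vismodegib by 1.39 for Calb2 and 1.08 for Cbln1 (limma, log2 scale), larger in 5 of 5 vismodegib tumors than in any vehicle tumor.

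WT barcodes under 500 UMIs, which entered no comparison, carried member transcripts above the 3 counts that a count of 0 allows. The mean over 5 animals was 256 CPM for Calb1, 233 for Pcp2, 892 for Pcp4, 187 for Camk4 and 111 for Cbln1. For Calb1 and Pcp2 these means lie above those of all WT classes except Purkinje-like cells.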

How the results depend on the processing

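Of 79 results on single members, 50 were called and 38 of these were called under every alternative run; 29 were not called, 15 of them under no alternative. All reversals came with another choice of late cells or clustering resolution. In vehicle against WT, with the set-aside late WT cluster counted in, Calb2 was -0.69 (log2) over CGNP-like cells; in Node D-like cells, by the marker gate, Camk4 was -0.80 and Cbln1 -0.61, with the set-aside late WT cluster in the gate Calb2 was -0.82, Camk4 -1.74, Cbln1 -1.29 and Vsnl1 -1.62, and at resolution 1.2 Camk4 was -0.009. In vismodegib against vehicle Node D-like cells, the gate gave Cbln3 1.55 and Vsnl1 1.72. The settings with this cluster, the Eomes split within it and those without clusters rich in hemoglobin transcripts were chosen after seeing the data. With no filter on low counts, some members left out of the main tests were called. Among them, Calb2, Pcp2 and Vsnl1 were higher in WT Node D-like than Node A-like cells (edgeR adjusted p = 3.2e-09, 1.3e-06 and 0.00309). In vehicle against WT Node D-like cells, Cbln3 was higher and Pcp2 and Calb1 were lower (edgeR adjusted p = 1.1e-07, 2.7e-06 and 0.00017).

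Counts of all genes called in vismodegib against vehicle were 240 (Node A-like), 335 (Node B-like), 59 (Node C-like) and 0 (Node D-like). They became 375, 585, 121 and 2 with DESeq2, 448, 726, 164 and 6 with the division of the tumors as a term, and 403, 536, 201 and 31 with no filter on low counts. In Node D-like cells resolution 1.2 gave 10 and the gate 2132. Vehicle against WT Node D-like cells gave 973 genes, 2214 by the gate, 2696 with the set-aside cluster in it and 1588 with no filter. WT Node D-like against Node A-like cells gave 2201, 3395 with no filter and 3527 with the set-aside cluster. Purkinje-like against interneuron-like cells gave 1394 and 2209 with no filter. Node D-like against interneuron-like cells gave 598, 316 with DESeq2, 334 with no replicate block and 969 with the set-aside cluster. Interneuron-like against progenitor-like cells gave 1133, 703 with DESeq2 and 1863 with no filter. The Eomes comparison gave 35, 16 thinned, 23 with DESeq2, 67 with no filter and 20 with no replicate block. The late minus early difference gave 1386, and 630 with no filter. The causes were not tested.

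Same-numbered animals correlated between -0.385 and 0.416 and matched their own number best in 1 or 2 of 5, so the numbers were not taken to pair animals. With a replicate block, vismodegib against vehicle Node D-like cells gave 5 genes, and the block called Pcp2 in CGNP-like and Pcp4 in Node C-like cells (edgeR adjusted p = 0.0275 and 0.0121) and lost Camk4 in vehicle against WT Node D-like cells (0.0809).

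Leaving out 1 animal gave 1147 to 1903 genes for vismodegib against vehicle in CGNP-like cells, 167 to 268 in Node A-like, 221 to 369 in Node B-like, 27 to 58 in Node C-like and 0 to 1 in Node D-like cells. It gave 4699 to 5473 for vehicle against WT CGNP-like and 861 to 1055 for Node D-like cells. Node D-like against Node A-like cells gave 1836 to 2368 in WT, 4477 to 5149 in vehicle and 6061 to 7589 in vismodegib. Purkinje-like cells gave 949 to 1417 against Node D-like and 981 to 1660 against interneuron-like cells, Node D-like against interneuron-like cells 439 to 581, interneuron-like against progenitor-like cells 900 to 1264, the Eomes comparison 20 to 40 and the late minus early difference 975 to 1455. Of 70 mean levels, 13 moved by more than their SD at resolution 1.2. With members and partners not held out 12 moved and 51 did not. At an upper limit of 4 SD 9 moved and 54 did not. Depth limits the members in WT Node D-like cells, where Cbln2 had 0, Cbln3 3, Vsnl1 16 and Calb1 and Calb2 27 UMIs each.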
